A study of Mus musculus with 42 samples.

Results

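The 37 genes examined encode the proteins of the extracellular matrix of connective tissue cells, the enzymes and the chaperone that build them, and the proteases and inhibitors that turn them over. They were taken by gene symbol from the RNA-seq tables, and from the 3′READS tables as all polyadenylation sites (PASs) inside the mm9 span of the gene or up to 4 kb past its end on the same strand. All 37 were found, among 13347 protein-coding genes with 3′READS reads and 12365 genes in the RNA-seq tables, and they held 452 of the 60439 PASs assigned to such genes. By role they fell into 7 groups: 5 fibrillar collagens, 6 basement membrane genes, 4 genes of collagens VI and XII, 9 matrix glycoproteins, 5 proteins that mature collagen in the endoplasmic reticulum (ER), 3 crosslinking enzymes, and 5 proteases and protease inhibitors.

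Collagen chains are made on ER-bound ribosomes, hydroxylated on proline and lysine, folded into triple helices with the help of the chaperone HSP47 and secreted, and the fibrils are then crosslinked by lysyl oxidases outside the cell. Fibroblasts such as NIH3T3 make this matrix in large amounts, and muscle cells are wrapped in a basement membrane of collagen IV, laminin, nidogen and perlecan. The 3′ end of an mRNA is set by the PAS at which it is cleaved and polyadenylated, and a gene with several PASs in its last exon makes isoforms with shorter or longer 3′ untranslated regions (3′UTRs).

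The series examined how oxidative stress changes PAS use, in 42 libraries from established mouse lines. NIH3T3 is a fibroblast line, and C2C12 is a myoblast line that was taken as dividing myoblasts (MB) or as myotubes (MT) formed after a switch to horse serum. Stressed cells (AS) were exposed to 250 µM sodium arsenite for 1 h, recovering cells (RC) were then washed and returned to normal medium for 4, 8, 12 or 24 h (RC4 to RC24), and untreated cells (NT) were harvested at 0 h or 4 h. NIH3T3 total RNA had 3 NT and 3 AS libraries and 1 library for each recovery time, all 4 times belonging to library number 4. Newly made RNA, labelled with 50 µM 4-thiouridine for 1 h before harvest (4sU), was separated from the unlabelled, pre-existing RNA in the flow-through (Ft), with 2 NT, 1 AS and 1 RC4 library of each fraction. RNA bound to the stress granule protein TIA1 was immunoprecipitated from NT and AS lysates, with 2 TIA1 and 2 input libraries of each. Total RNA of C2C12 had 2 MB and 2 MT libraries, cytoplasmic RNA of C2C12 had 1 library for each of NT at 0 h, NT at 4 h, AS and RC4 in either state, and RNA-seq of NIH3T3 had 1 library for each of the same 4 conditions. The study describes the libraries of TIA1 and of total RNA as biological replicates, while the labels do not say whether libraries of a group came from separate cultures, so that p-values measure the spread between these libraries. A line is a single cell population, and in bulk RNA fewer expressing cells and less RNA per cell cannot be told apart.

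The 38 3′READS libraries held 1048335 to 6974664 reads and the 4 RNA-seq libraries 17137579 to 25194062. 3′READS gives 1 read per transcript end, so its levels are comparable between genes without a length correction, whereas RNA-seq levels are comparable only for a gene between libraries. The 37 genes took between 1.048% and 4.221% of the 3′READS gene reads of a library, lowest in an NT input library and highest in an MT total RNA library. The NIH3T3 total RNA libraries differed by library number more than by treatment: Col1a2 stood at 927 and 651 CPM (counts per 1000000 counts of the library) in NT and AS of number 1, at 72.6 and 87.9 in number 2 and at 186 and 143 in number 4. In NIH3T3 total RNA the summed level of 7 fibroblast markers was 6004 to 20757 CPM in NT and that of 11 muscle markers 0 to 2.4 CPM. In C2C12 total RNA the muscle markers summed to 246.5 to 261.2 CPM in MB and to 27191 to 28548 CPM in MT, with Myog, Myh3, Ckm, Tnnt3 and Actc1 at 0 in both MB libraries. The 7 fibroblast markers summed to 16314 to 17236 CPM in MB and to 4669.5 to 4842.2 CPM in MT, although Pdgfra, Thy1 and Twist1 were at 0 in all 4 of these libraries. All 5 endothelial markers were also at 0. PASs with fewer than 5 reads are not listed in a library, so a level of 0 means no listed PAS.

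Matrix genes made up a larger share of the mRNA of myotubes than of myoblasts, and most of the 37 were higher in MT. In total RNA, 30 of the 37 rose in MT and 4 fell (edgeR quasi-likelihood test, adjusted p under 0.05), while 32.4% of all 9985 genes tested were higher and 29.6% were lower. The median log2 fold change was 1.08 for the 37 genes and 0.03 for all genes. Their share of gene reads was 1.540% and 1.557% in the MB libraries and 3.902% and 4.221% in the MT libraries. Muscle markers moved with this difference, 9 of 10 tested rising, and all 8 proliferation markers fell with a median of -2.71. Of 4 fibroblast markers tested 0 rose and 3 fell, with a median of -1.14. The summed proliferation markers were 2434 to 2481 CPM in MB and 379.7 to 381.5 CPM in MT. The part of any of these marker lists in the difference was not tested.

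All 5 fibrillar collagens rose. Col3a1, the chain of type III collagen found in distensible tissues, stood at 7139.5 and 7704 CPM in the MT libraries and 1006 and 933 CPM in the MB libraries, a log2 fold change of 2.94 (SE 0.09, edgeR adjusted p = 2.89e-13). Col1a1, which encodes the major chain of type I collagen, stood at 767 and 705 CPM in the MT libraries and 84.8 and 91.8 CPM in the MB libraries, a change of 3.06 (SE 0.11, edgeR adjusted p = 1.07e-12). The MT values of both genes lay far above the MB values. The partner chain Col1a2 rose by 1.54 on the log2 scale, Col5a1 by 2.04 and Col5a2, whose collagen V nucleates fibrils, by 1.01.

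Basement membrane genes did not share that direction. Col4a1 and Col4a2, the neighbouring genes for the chains of the collagen IV sheet, fell in MT with log2 fold changes of -1.01 (SE 0.11, edgeR adjusted p = 7.76e-07) and -0.64 (SE 0.10, edgeR adjusted p = 6.41e-05). Nid1, the linker between laminin and collagen IV, fell by 2.36 (SE 0.71) at a very low level, from 6.3 and 6.08 CPM to 2.51 and 0 CPM. Hspg2, which encodes the proteoglycan perlecan, rose by 0.74 (SE 0.10, edgeR adjusted p = 1.3e-05), the laminin chain Lamc1 rose by 0.36 (SE 0.15, edgeR adjusted p = 0.0449), and the laminin chain Lamb1 did not pass the test at -0.17. The list of 6 thus held 2 that rose, 3 that fell and a median of -0.41.

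Collagen VI, a beaded filament collagen around muscle fibres, was uneven between its chains. Col6a2 stood at 197 and 184 CPM in the MT libraries and 7.62 and 11.1 CPM in the MB libraries, a log2 fold change of 4.32 (SE 0.17, edgeR adjusted p = 4.79e-12). Col6a1 rose by 2.65 (SE 0.13, edgeR adjusted p = 6.76e-11), but Col6a3 did not pass the test at 0.06 (SE 0.16, edgeR adjusted p = 0.752), its MB libraries of 507 and 839 CPM lying on either side of its MT libraries of 677 and 731 CPM. Col12a1, a collagen that sits on fibrils, rose by 0.87 (SE 0.21, edgeR adjusted p = 0.00203).

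Among the matrix glycoproteins 7 rose and 1 fell. Postn, which encodes periostin, had the largest change of the 37 genes at 7.68 (SE 0.20, edgeR adjusted p = 3.17e-14), with 909.6 and 912 CPM in the MT libraries and 1.99 and 6.35 CPM in the MB libraries. Fbn1, the fibrillin of microfibrils, stood at 2087 and 1932 CPM in the MT libraries and 117 and 128 CPM in the MB libraries, a change of 4.03 (SE 0.10, edgeR adjusted p = 3.17e-14). Fn1, the fibronectin gene, stood at 5434 and 7125 CPM in the MT libraries and 773 and 929 CPM in the MB libraries, a change of 2.88 (SE 0.13, edgeR adjusted p = 1.57e-11). MT and MB libraries of these 3 genes did not overlap. The collagen-binding glycoprotein Sparc rose by 1.61, Tnc, the tenascin C gene, by 1.19, the small proteoglycan Bgn by 1.17 and Thbs2 by 1.08. Thbs1, an adhesive glycoprotein that activates latent TGF-beta, went the other way and fell with a log2 fold change of -0.59 (SE 0.10, edgeR adjusted p = 0.000124). Fstl1 did not pass the test at 0.06.

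The genes that modify and crosslink collagen rose with their substrates. All 5 ER genes rose: the prolyl hydroxylases P4ha1 and P4ha2 by 1.72 and 0.62, the HSP47 gene Serpinh1 by 1.23, and the lysyl hydroxylases Plod1 and Plod2 by 0.48 and 1.05. The 3 lysyl oxidases rose by 0.51 (Lox), 1.13 (Loxl1) and 1.11 (Loxl2). The collagenase activator Mmp14 and the gelatinase Mmp2 rose by 0.58 and 1.71, and so did the inhibitors Timp1, Timp2 and Timp3, by 0.47, 0.39 and 2.73. Of 38 other matrix genes tested 16 rose and 13 fell, of 16 matrix receptors 7 rose and 5 fell, and of 13 genes of the TGF-beta pathway 6 rose and 3 fell.

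The cytoplasmic libraries, a separate preparation with library number 1, allowed the same contrast over 4 MT and 4 MB libraries, with treatment as a term of the fit. Here 31 of the 37 genes were higher in MT and 1 was lower, against 21.9% and 16.3% of all 8651 genes tested, with a median log2 fold change of 1.62 against 0.10 for all genes. Muscle markers summed to 257.7 to 450.6 CPM in MB and to 15084 to 23090.1 CPM in MT. Of the 7 groups, the basement membrane list had the lowest median, 0.41, with 2 of 6 higher. The contrasts of MT with MB, of AS with NT and of RC4 with NT in the cytoplasm all come from these 8 libraries.

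In the order NT at 0 h, NT at 4 h, AS and RC4, Postn stood at 652, 574, 958 and 991 CPM in the MT libraries and 4.07, 3.99, 10.6 and 8.72 CPM in the MB libraries, a log2 fold change of 6.85 (SE 0.23, edgeR adjusted p = 7.56e-08). Col6a2 was listed at 0 in 3 of the 4 MB libraries and at 10.2 CPM in the fourth, and it stood at 113, 104, 216 and 216 CPM in the MT libraries. Col1a1 stood at 553, 602, 2126 and 1099 CPM in the MT libraries and 38.6, 31.9, 55.5 and 18.8 CPM in the MB libraries, a change of 4.79 (SE 0.32, edgeR adjusted p = 2.99e-06). In each of these 3 genes the lowest MT library exceeded the highest MB library. Col6a1, the second chain of collagen VI, stood at 185, 172, 282 and 369 CPM in the MT libraries and 9.49, 5.32, 20.8 and 6.71 CPM in the MB libraries, a change of 4.55 (SE 0.30, edgeR adjusted p = 2.48e-06). Col3a1 changed by 3.77 (SE 0.38, edgeR adjusted p = 3.56e-05) and Fbn1 by 3.67 (SE 0.21, edgeR adjusted p = 1.07e-06).

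A few members differed between the preparations. Thbs1 was lower in MT in total RNA but higher in MT in cytoplasmic RNA, with 488, 602, 525 and 386 CPM in the MT libraries and 248, 180.1, 360.1 and 109 CPM in the MB libraries and a log2 fold change of 1.26 (SE 0.23, edgeR adjusted p = 0.00151). Col4a1 and Col4a2, which fell in total RNA, did not pass the test in the cytoplasm at 0.32 and 0.50. Timp1 was higher in MT in total RNA and lower in the cytoplasm, at -0.52 (SE 0.18, edgeR adjusted p = 0.0363), a call that was lost without any of the MB or MT libraries of NT at 0 h, NT at 4 h or AS. The preparations were not fitted together, so the difference between them was not tested. They also differed in library number, so RNA fraction and preparation cannot be told apart.

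**Figure D1:**
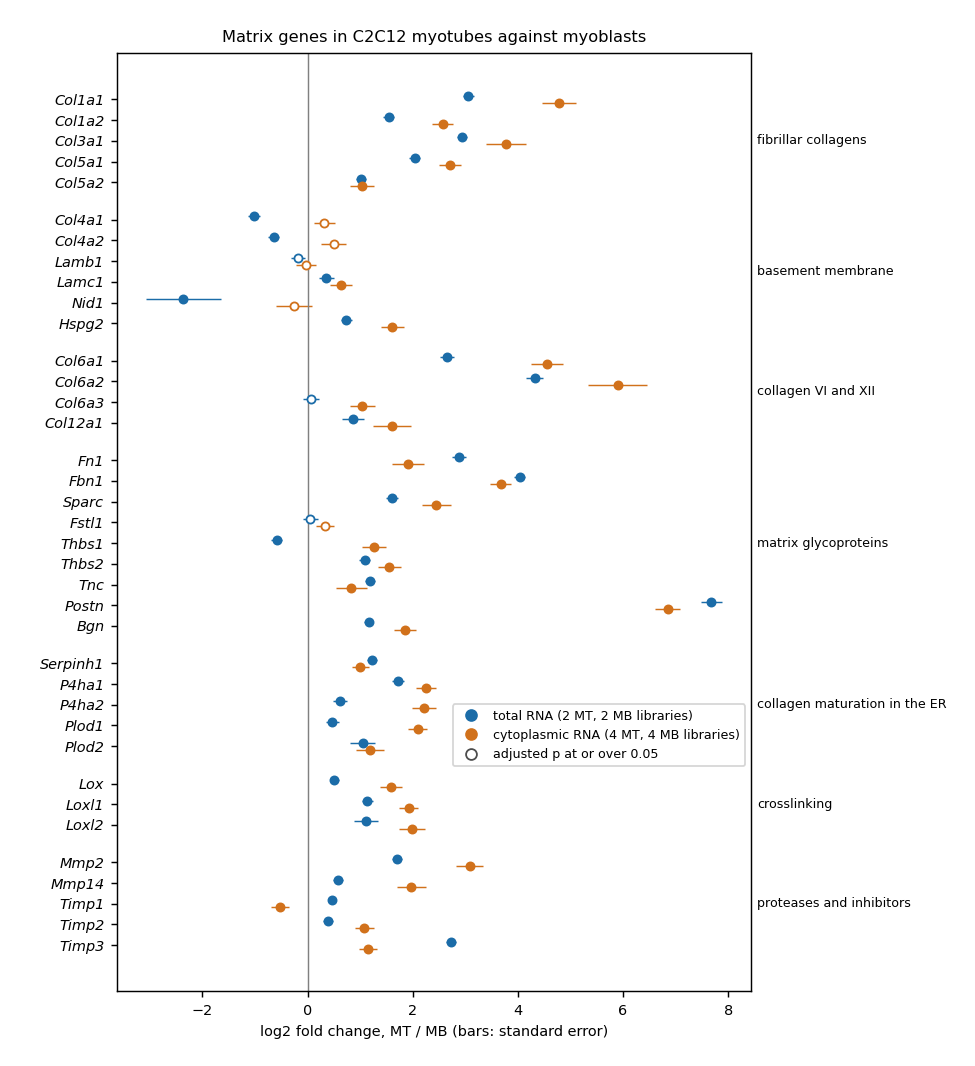
Log2 fold change of each of the 37 genes between C2C12 myotubes and myoblasts (x axis, bars are standard errors), in total RNA (blue, 2 MT and 2 MB libraries) and cytoplasmic RNA (orange, 4 and 4), grouped by role. Filled points passed the edgeR test. Most points lie right of 0, Postn at 7.68 and 6.85 farthest, and the collagen IV genes and Nid1 lie left of 0 in total RNA.

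In unstressed NIH3T3 cells most matrix mRNAs made up a larger share of pre-existing RNA than of newly made RNA. Of the 35 genes tested, 26 were higher in Ft than in 4sU RNA and 1 was lower, while 20.9% of all 10442 genes were higher and 23.3% lower. The median log2 ratio of Ft to 4sU was 0.87 for those 35 and -0.03 for all genes. The 37 genes took 2.505% and 2.602% of the Ft reads and 1.769% and 1.944% of the 4sU reads. As both fractions came from the RNA of the same cultures, a fit with the harvest as a block was also run and gave 28 higher and 1 lower (25.6% and 27.9% of all genes). 4sU capture is known to favour transcripts with more uridines, and after a correction for the number of uridines of the transcript the counts were again 26 and 1 (15.7% and 19.1% of all genes), with a median of 1.18, but for partly different genes: 23 were called in both fits, Timp1, Bgn, P4ha2 and Mmp14 only without the correction, and Col1a1, Fbn1, Lox and Col6a3 only with it. In labelling of this kind a message that is stable for its rate of synthesis gathers in the Ft fraction, and one that turns over fast is seen mainly in the 4sU fraction.

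Thbs1 was the single gene of the 35 that was higher in newly made RNA. It stood at 1679 and 2038 CPM in the 4sU libraries and 483 and 592 CPM in the Ft libraries, a log2 ratio of -1.79 (SE 0.18, edgeR adjusted p = 4.72e-05). Both 4sU libraries lay above both Ft libraries, and the corrected ratio was -1.25. At the other end Plod1, a lysyl hydroxylase, stood at 14.4 and 14.6 CPM in the 4sU libraries and 45.9 and 45.4 CPM in the Ft libraries, a log2 ratio of 1.65 (SE 0.25, edgeR adjusted p = 0.000467). Loxl1, which crosslinks elastin, stood at 343 and 268 CPM in the 4sU libraries and 839 and 815 CPM in the Ft libraries, a ratio of 1.44 (SE 0.17, edgeR adjusted p = 0.000114). Col3a1 stood at 320.1 and 454 CPM in the 4sU libraries and 847 and 1137 CPM in the Ft libraries, a ratio of 1.36 (SE 0.21, edgeR adjusted p = 0.000506). In these 3 genes both Ft libraries exceeded both 4sU libraries, and their ratios after the uridine correction were 1.64, 1.33 and 1.81. Sparc, with 352 and 393 CPM in the 4sU libraries and 886 and 1009 CPM in the Ft libraries, had a ratio of 1.35 (SE 0.16, edgeR adjusted p = 0.000115), and Timp1, with 1152 and 793 CPM in the 4sU libraries and 2932 and 2002 CPM in the Ft libraries, one of 1.34 (SE 0.23, edgeR adjusted p = 0.000821). After the uridine correction Sparc stood at 1.09, whereas Timp1 no longer passed at 0.40 (SE 0.22, corrected edgeR adjusted p = 0.196).

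By role, 4 of 5 fibrillar collagens, 5 of 6 basement membrane genes, 2 of 3 collagen VI genes, 6 of 9 glycoproteins, 4 of 5 ER genes, 1 of 2 lysyl oxidases and 4 of 5 proteases and inhibitors were higher in Ft. The fibrillar collagen that was not called was Col1a1, at 949.9 and 1352 CPM in 4sU and 1204 and 1479 CPM in Ft, which did not pass the test at 0.22 (SE 0.20, edgeR adjusted p = 0.397) but passed after the uridine correction at 0.71 (SE 0.20, corrected edgeR adjusted p = 0.0176), while its partner Col1a2 had a ratio of 0.87 (SE 0.17, edgeR adjusted p = 0.00163). Fbn1 (0.21), Lox (0.37), Timp3 (-0.18), Nid1 (-0.37), Col6a3 (0.41), Plod2 (0.47) and Postn (-1.07) also did not pass. Of these, Fbn1, Lox and Col6a3 passed after the uridine correction, at 1.27 (SE 0.17, corrected edgeR adjusted p = 0.000367), 0.82 (SE 0.15, corrected edgeR adjusted p = 0.00202) and 1.17 (SE 0.26, corrected edgeR adjusted p = 0.0063). With that correction 5 of 5 fibrillar collagens, 5 of 6 basement membrane genes, 3 of 3 collagen VI genes, 6 of 9 glycoproteins, 3 of 5 ER genes, 2 of 2 lysyl oxidases and 2 of 5 proteases and inhibitors were higher in Ft. Col12a1 and Loxl2 had too few reads to be tested, and Postn, Plod2 and Nid1 were low in both fractions. Other gene lists of the same cells differed in their counts: of 36 other matrix genes 17 were higher and 7 lower in Ft, of 16 matrix receptors 2 and 4, of 13 TGF-beta pathway genes 1 and 8, and of 10 stress genes 0 and 5.

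**Figure D2:**
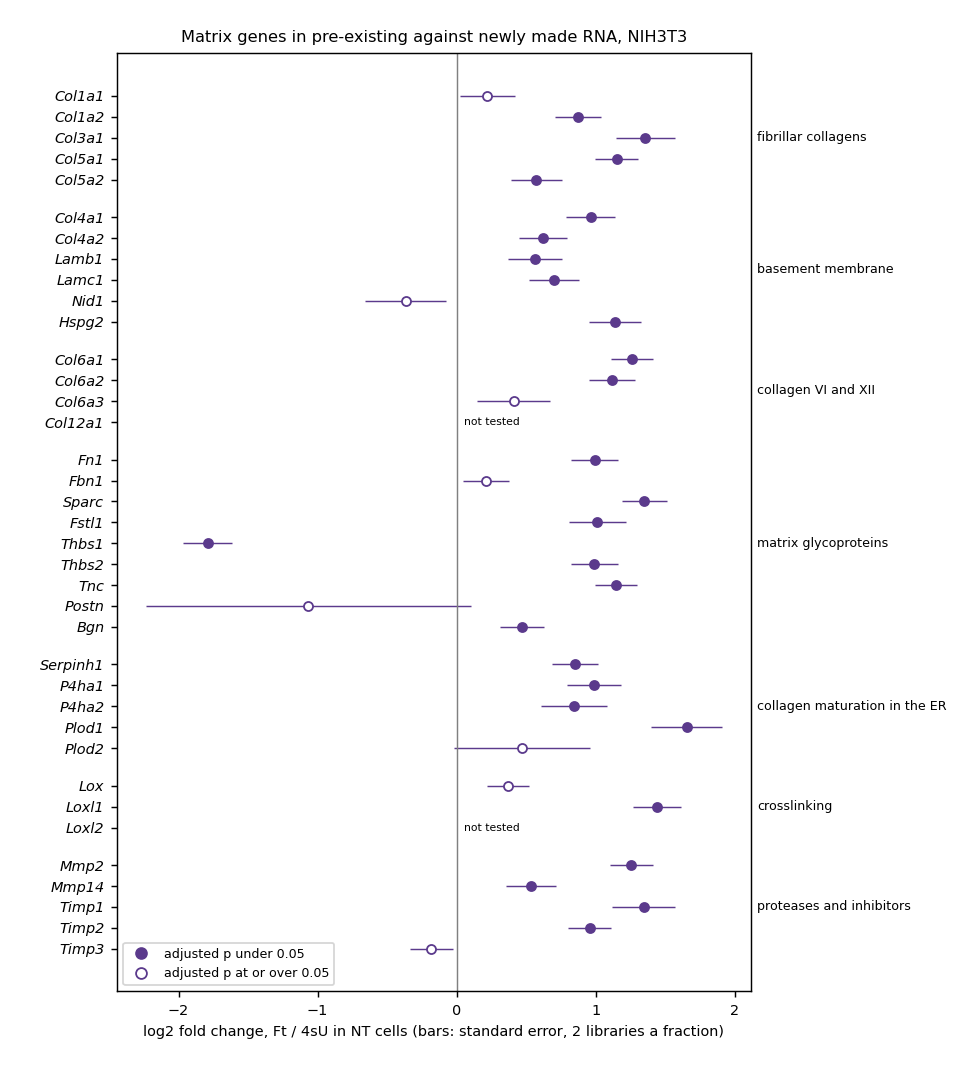
Log2 ratio of pre-existing (Ft) to newly made (4sU) RNA for the 37 genes in untreated NIH3T3 cells (x axis, bars are standard errors, 2 libraries a fraction), grouped by role. Filled points passed the edgeR test. Most genes lie between 0.47 and 1.65, and Thbs1 stands alone among the called genes at -1.79.

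After 1 h of arsenite, there was no called change of a matrix gene in NIH3T3. In total RNA 0 of 35 members tested passed (Postn and Loxl2 had too few reads), and 0 of 9002 genes did (0%), with 3 NT and 3 AS libraries in edgeR. DESeq2 also called 0 members, and 0 members had p under 0.05 before adjustment in the edgeR fit. With the library number, which pairs NT with AS, as a block, 0 members passed again, beside 0.311% of all genes higher and 0.0111% lower. In the blocked fit 5 members had p under 0.05 before adjustment, with log2 fold changes of -0.55 for Fbn1, -1.17 for Tnc, -0.30 for Lox, -1.12 for Plod2 and 0.36 for Col6a3. The log2 fold change was negative in 28 of the 35 members, with a median of -0.17 against -0.03 for all genes, and stress markers had a median of 1.63 without a call. In the input libraries of the TIA1 immunoprecipitation 0 of 36 members passed in edgeR or DESeq2, and 1 had p under 0.05 before adjustment (2 with the library number as a block), beside 0.0106% of all genes called higher and 0% lower by edgeR. In the comparisons with 1 treated library, past 2-fold were 0 members higher and 1 lower in RNA-seq (1.89% and 0.503% of all genes), 0 and 0 in total RNA of number 4 (0.688% and 2.68%), 1 and 0 in 4sU RNA (1.59% and 5.54%), and 0 and 0 in Ft RNA (1.05% and 1.36%). The single gene that was lower was Fbn1 in RNA-seq, at 584 RPM (reads per 1000000) in NT and 288 RPM in AS. The single higher gene was Serpinh1 in 4sU RNA, at 238 and 287 RPM in NT and 738 RPM in AS. Serpinh1 encodes HSP47, whose gene is known to be induced by heat shock. These ratios rest on 1 treated library and are given without a test.

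In the cytoplasm of C2C12 all 37 genes had higher estimates after arsenite, but the edgeR test called 0 of them, beside 0.231% of the 8651 genes tested called higher and 0% lower. The median log2 fold change was 0.76 against 0.01 for all genes, in a fit with MB and MT as a term. The rise was not particular to these genes. Estimates were also positive in 31 of 35 other matrix genes (median 0.66) and 15 of 16 matrix receptors (0.55), and in 5 of 10 TGF-beta pathway genes (0.04). At p under 0.05 before adjustment 23 members were higher and 0 lower, a count made for members only, without the share of all genes. DESeq2 in place of edgeR called 7 higher (Col5a1, Fn1, Hspg2, Col4a1, Tnc, Col4a2 and Fbn1), beside 0.786% of all genes. Fn1 had the highest estimate at 1.96 (SE 0.42, edgeR adjusted p = 0.149). It stood at 153 and 129 CPM in NT and 524 CPM in AS in MB, and at 339 and 426 CPM and 1536 CPM in MT, so the AS library was the higher one in either state. In a fit added after seeing the data, in which the NT libraries of a state were combined and the single AS library was assumed to vary like them, the difference between MT and MB in the response was called in 0 of the 37 genes (0% of all genes, edgeR, 4 members at p under 0.05 before adjustment). The summed stress markers were at 669.9 to 715.4 CPM in NT, 4634 CPM in AS and 14582 CPM at RC4 in MB, and at 469.9 to 512.5, 3311 and 25402 CPM in MT, and their part in the AS and RC4 differences was not tested. The AS libraries are 1 per state, and the 37 genes took 1.242% of reads in NT at 0 h and 1.645% in AS in MB, and 2.283% and 3.457% in MT.

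After 4 h of recovery, 4 of the 37 genes were higher in C2C12 cytoplasm and 0 were lower, against 2.97% and 2.64% of all genes, and the median was 0.66 against -0.02 for all genes. That median joins MB and MT. The 37 genes took 1.141% of reads in NT at 4 h and 1.108% at RC4 in MB, and 2.466% and 3.453% in MT. Of the members with at least 50 reads, RPM ratios were positive in 11 and negative in 15 in MB (median -0.08, all genes -0.26). In MT they were positive in 34 and negative in 2 (median 0.64, all genes -0.17). The RC4 and AS contrasts come from the same fit, in which RC4 was set against NT at 4 h. Serpinh1 stood at 247 CPM in NT at 4 h and 793 CPM at RC4 in MB, and at 497 CPM and 1329 CPM in MT, a log2 fold change of 1.56 (SE 0.23, edgeR adjusted p = 0.00371). The collagen IV genes rose together, Col4a1 by 1.59 (SE 0.29, edgeR adjusted p = 0.011) and Col4a2 by 1.40 (SE 0.35, edgeR adjusted p = 0.0424), and Fstl1 rose by 0.96 (SE 0.24, edgeR adjusted p = 0.042). Col4a1 went from 33.9 CPM to 110.0 CPM in MB and from 55.1 CPM to 159 CPM in MT. Its NT libraries in MB, however, stood at 71.9 CPM at 0 h and 33.9 CPM at 4 h, a difference of -1.06 on the log2 scale between untreated libraries.

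The RC4 calls rested on single libraries: 0 of the 37 genes were called higher without the MB or without the MT library of NT at 4 h, 1 without the MT library of RC4 (and 1 lower), and 3 without the MB library of RC4. With DESeq2 7 members were higher (Serpinh1, Col4a1, Col4a2, Fn1, Fstl1, Col6a3 and Col5a1), beside 3.69% of all genes. In the fit with the NT libraries combined, the difference between MT and MB at RC4 was called in 0 of the 37 genes (0% of all genes, edgeR, 8 members at p under 0.05 before adjustment).

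At RC4 in NIH3T3 the matrix genes took a smaller share of reads than in the NT libraries of the same set, in each of 4 sets. The 37 genes took 1.298% of total RNA reads at RC4 and 1.565% in NT of the same number. They took 1.091% of 4sU reads at RC4, below both NT libraries (1.769% and 1.944%), and 1.783% of Ft reads (2.505% and 2.602% in NT). In RNA-seq they took 2.484% at RC4 and 3.885% in NT at 4 h. Each of these 4 sets has 1 RC4 library and is given without a test. A gene is counted here when its ratio of RPM (plus 1) was past 2-fold, in 4sU and Ft against both NT libraries. It needed at least 50 reads in 1 or more of the libraries compared. In 4sU RNA 5 of 34 members were higher and 13 lower (6.65% and 15.1% of all genes), in Ft RNA 1 of 33 and 10 (6.44% and 17.6%), in total RNA 0 of 33 and 5 (7.86% and 12.1%), and in RNA-seq 2 of 36 and 18 (5.62% and 37.3%). The all-gene median of these ratios was -0.27 in 4sU, -0.42 in Ft, -0.20 in total RNA and -0.74 in RNA-seq. Scaled by median-of-ratios size factors instead, the counts were 5 higher and 11 lower in 4sU (10.9% and 9.02% of all genes), 4 and 4 in Ft (12% and 8.14%), 0 and 3 in total RNA (11.4% and 7.13%), and 6 and 4 in RNA-seq (14.7% and 12.1%). With this scaling the medians of members and of all genes were -0.22 and 0.04 in 4sU and -0.0038 and -0.0005 in Ft. In total RNA they were -0.06 and 0.05, and in RNA-seq -0.21 and -0.0009. The summed stress markers were at 1192 to 1375 CPM in the NT 4sU libraries and 19572 CPM at RC4, and in Ft 991.0 to 1011 CPM and 26675 CPM. Their part in the lower matrix shares was not tested. All 8 proliferation markers were past 2-fold lower in 4sU RNA, and their part was not tested either.

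In newly made RNA the members went both ways at RC4, between roles and within them. Of 5 ER genes 3 were higher, with a median log2 ratio of 1.62, beside 6.65% of all genes higher. Lower were 3 of 5 fibrillar collagens and 2 of 2 measured lysyl oxidases, with medians of -1.82 and -1.96. Among all genes 15.1% were lower, and the median was -0.27. Within these roles the ER gene Plod1 stood at -0.84 and the fibrillar collagen Col5a1 at -0.06. Col1a1 had the lowest ratio, with 1095 and 1590.4 RPM in the NT libraries and 67 RPM at RC4, a log2 ratio of -4.28. Lox, whose product crosslinks collagen, stood at 2193 and 2513 RPM in the NT libraries and 503 RPM at RC4, a ratio of -2.22. Thbs1 stood at 1936 and 2398 RPM in the NT libraries and 494 RPM at RC4, a ratio of -2.12, and Fbn1 at 175 and 191 RPM in the NT libraries and 37.5 RPM at RC4, a ratio of -2.26. In these 4 genes the RC4 library was below both NT libraries. In the other direction Plod2 stood at 3.79 and 3.84 RPM in the NT libraries and 34 RPM at RC4, a ratio of 2.86. With 8 and 13 reads in NT and 129 at RC4, it entered these counts only through the RC4 library. Nid1 stood at 23.7 and 43.4 RPM in the NT libraries and 206 RPM at RC4, a ratio of 2.65. The prolyl hydroxylases P4ha1 and P4ha2 had ratios of 1.62 and 2.01, Tnc 1.02, and Serpinh1 0.61. These 5 higher genes (Plod2, Nid1, P4ha1, P4ha2 and Tnc) were past 2-fold under both scalings. So were 11 of the 13 lower genes: Col1a1, Col1a2, Col3a1, Hspg2, Col6a1, Fbn1, Sparc, Thbs1, Lox, Loxl1 and Timp2. The untreated 4sU libraries of 0 h and 4 h differed past 2-fold in 0 members (1.21% of all genes higher, 0.389% lower).

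The Ft fraction shared part of this pattern. Col1a1 stood at 1186 and 1503 RPM in the NT libraries and 48.6 RPM at RC4, a log2 ratio of -4.75, and Fbn1 at 169 and 195 RPM in the NT libraries and 38.7 RPM at RC4, a ratio of -2.20. Col3a1 had a ratio of -1.97 and Loxl1 one of -1.53. These 4 genes were the ones past 2-fold lower in Ft under both scalings. Serpinh1 was the single higher gene, with 412 and 399.9 RPM in the NT libraries and 1046 RPM at RC4, a ratio of 1.36. Col5a1, Col4a1, Col4a2, Lamb1 and Thbs2 stayed within 2-fold in both fractions.

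RNA-seq, read over coding exons, put Fbn1 lowest, at 612 RPM in NT and 41.4 RPM at RC4, a log2 ratio of -3.85. Hspg2 followed at -2.43, from 654 to 121 RPM, and Col3a1 at -2.16, from 469 to 104 RPM. With Fstl1, these were the 4 genes past 2-fold lower under both scalings. Col1a1 was at 2479 and 1327 RPM, a ratio of -0.90, or -0.10 by size factors, beside 3′ end ratios of -1.67 in total RNA, -4.28 in 4sU and -4.75 in Ft. The sets differed in RNA fraction, method and library number, which cannot be told apart. Serpinh1 went from 1149 to 3297 RPM, a ratio of 1.52, and Plod2 from 46.2 to 129 RPM, a ratio of 1.46. Thbs1 had a ratio of 0.79 in RNA-seq and of -2.12, -1.25 and -0.72 in 4sU, Ft and total RNA. Besides Plod2, the genes past 2-fold higher in 4sU RNA had RNA-seq ratios of -1.31 (Tnc), -0.58 (Nid1), 0.09 (P4ha1) and 0.02 (P4ha2), beside an all-gene median of -0.74. Among the genes lower than NT in all 4 sets under both scalings were Fbn1, Col3a1, Col1a1, Loxl1, Col1a2, Col5a2, Hspg2 and Mmp2. Serpinh1 was higher in all 4 under both scalings. P4ha1 and P4ha2 were above NT in all 4 by RPM, though only just in RNA-seq. Of other gene lists in 4sU RNA, 10 of 30 other matrix genes, 2 of 14 matrix receptors and 5 of 11 TGF-beta pathway genes were past 2-fold lower and 3, 1 and 0 were higher.

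**Figure D3:**
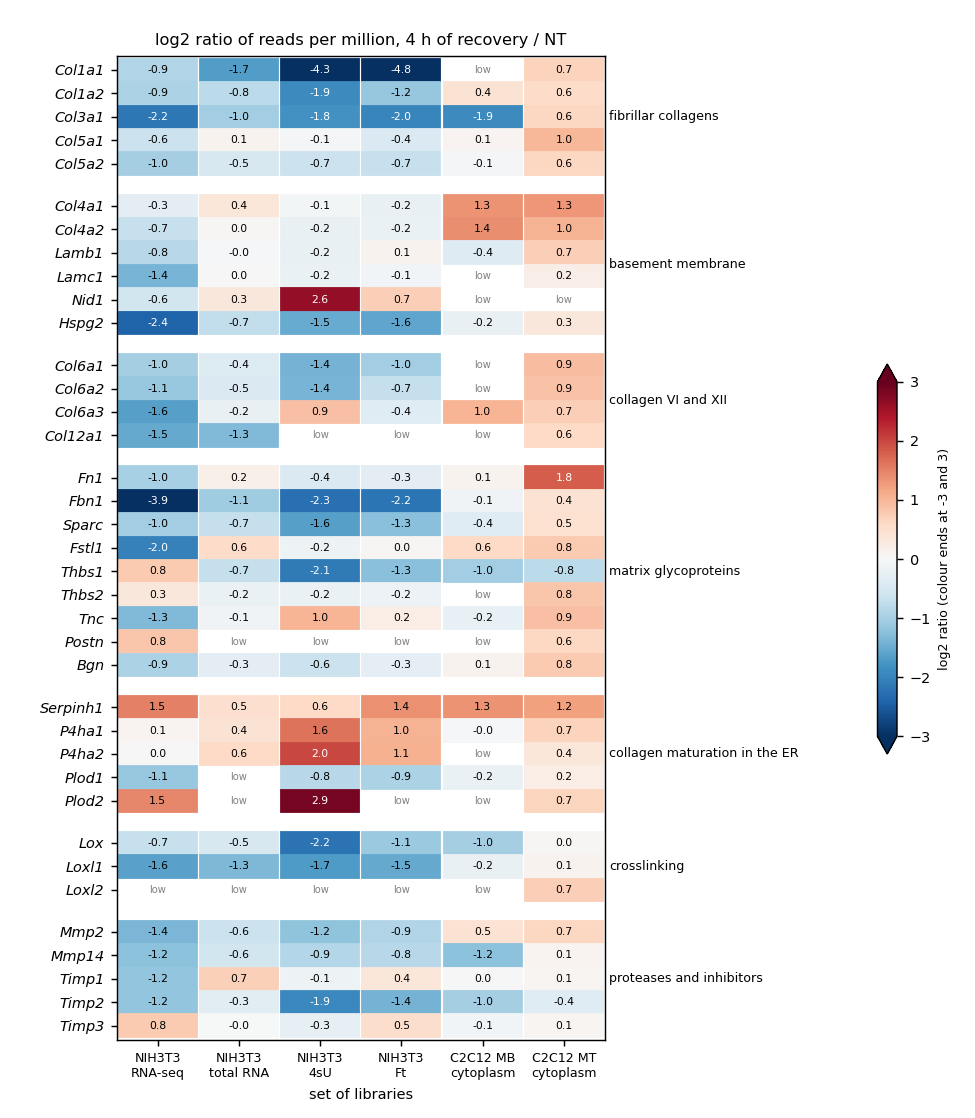
Log2 ratio of RPM (plus 1) at 4 h of recovery to NT for each of the 37 genes (rows, by role) in 4 NIH3T3 and 2 C2C12 sets of libraries (columns). 4sU and Ft are set against the mean of both NT libraries, RNA-seq and C2C12 against NT at 4 h and total RNA against NT at 0 h, blue lower and red higher, with the ratio printed to 1 decimal and "low" marking genes under 50 reads. Each set has 1 recovery library. Col1a1 and Fbn1 are darkest blue in NIH3T3, Serpinh1 is red in all 6 columns, and the C2C12 MT column is mostly red.

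The time course of NIH3T3 total RNA, 1 library a time, showed different courses within the group. Col1a1 stood at 212 RPM in NT, 65.8 at RC4, 226 at RC8, 224 at RC12 and 254 at RC24, so that the low value was at RC4 alone. Col3a1 stayed low longer, with log2 ratios of -1.05, -1.30 and 0.20 at RC4, RC8 and RC24. Col12a1 was low at every recovery time, with 48.5 RPM in NT and 18.8, 14.8, 13.3 and 15.9 RPM from RC4 to RC24, all at a low depth. Loxl1 went from 748 RPM to 295 at RC4 and stood at 729.5 RPM at RC24. Past 2-fold lower were 5 members at RC8 (2.9% of all genes), 3 at RC12 (1.73%) and 1, Col12a1, at RC24 (1.08%), and 0 were higher at these times (4.17%, 1.42% and 0.369% of all genes). The 5 at RC8 were Col3a1, Hspg2, Col6a1, Col12a1 and Mmp2. Serpinh1 stood at 486 RPM in NT, 686 at RC4 and 325 at RC8. The share of reads in the 37 genes was 1.298% at RC4, 1.195% at RC8, 1.219% at RC12 and 1.463% at RC24, beside 1.565% in NT.

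**Figure D4:**
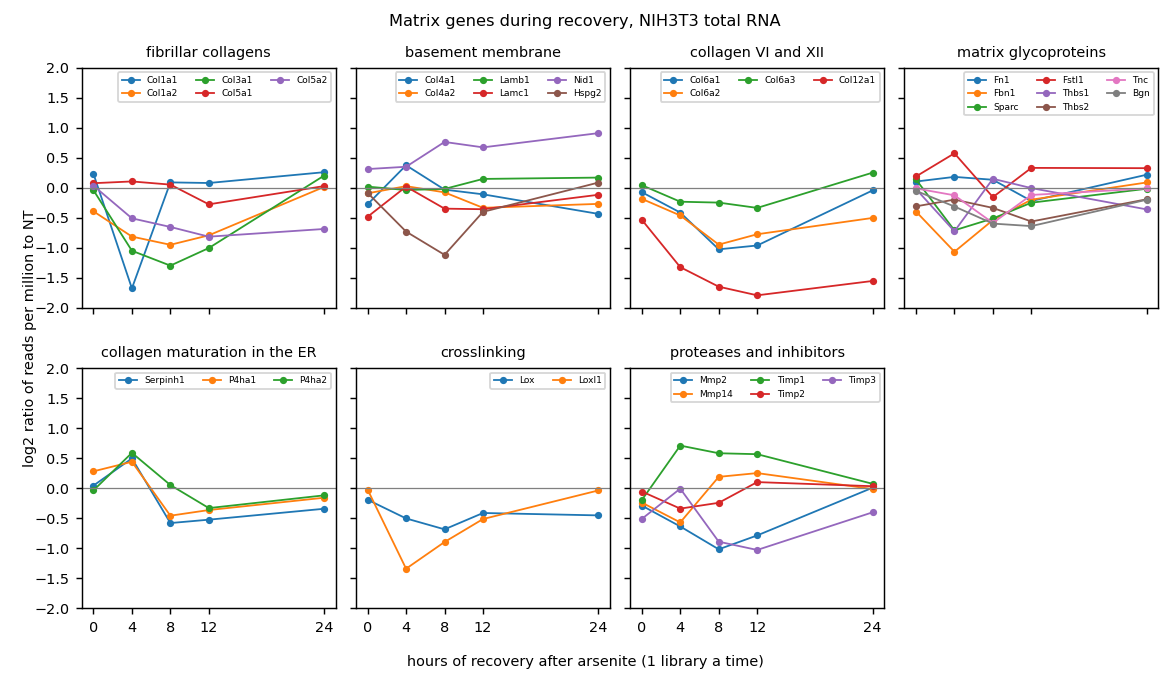
Log2 ratio of RPM to NT (y axis) by hours of recovery after arsenite (x axis, 0 h is the end of the arsenite exposure) in NIH3T3 total RNA, 1 panel a role and 1 line a gene. Each point is 1 library. Most lines lie between -1 and 1, Col1a1 dips to -1.67 at 4 h, and Col12a1 lies at -1.32 or lower from 4 h on.

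Binding to TIA1, an RNA-binding protein with a preference for uridine-rich sequence, was measured as TIA1 immunoprecipitate against input. Without a block, 1 of 36 members was higher in the immunoprecipitate in NT and 0 lower (edgeR, 1.75% and 1.45% of all genes), and 0 and 0 in AS (0.158% and 0.39%), where 3 had p under 0.05 before adjustment and DESeq2 called 1. The gene was Col5a1, with 228 and 111 CPM in the NT inputs and 1035 and 2876 CPM in the NT immunoprecipitates, a log2 ratio of 3.53 (SE 0.67, edgeR adjusted p = 0.034), and it was not called without either NT input library. An immunoprecipitate and the input of the same number and condition came from 1 lysate. With that number, which NT and AS lysates shared, as a block, 4 members were higher and 2 lower in NT (9.23% and 9.42% of all genes). Thbs1, with 1234 and 416 CPM in the NT inputs and 3355 and 1775 CPM in the NT immunoprecipitates, had a blocked ratio of 1.76 (SE 0.27, blocked edgeR adjusted p = 0.00203). Col5a1 had one of 3.68 (SE 0.58, blocked edgeR adjusted p = 0.0022) and Fn1 one of 2.33 (SE 0.54, blocked edgeR adjusted p = 0.0124). Fbn1 had one of 3.23 (SE 0.68, blocked edgeR adjusted p = 0.00832), resting on immunoprecipitates of 1448 and 112 CPM against inputs of 70 and 45.5 CPM. The lower genes were Timp1, with 1889 and 423 CPM in the NT inputs and 540.3 and 129 CPM in the NT immunoprecipitates and a ratio of -1.76 (SE 0.38, blocked edgeR adjusted p = 0.0089), and Sparc, with a ratio of -1.09 (SE 0.32, blocked edgeR adjusted p = 0.0348).

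After arsenite the blocked fit gave 3 higher and 2 lower members (9.61% and 7.35% of all genes). Thbs1, with 1401 and 750.2 CPM in the AS inputs and 4682 and 1721 CPM in the AS immunoprecipitates, had a ratio of 1.47 (SE 0.27, blocked edgeR adjusted p = 0.0052), Col1a1 one of 1.36 (SE 0.29, blocked edgeR adjusted p = 0.0104) and Col6a3 one of 1.11 (SE 0.34, blocked edgeR adjusted p = 0.0488). Timp1, with 1731 and 293 CPM in the AS inputs and 289 and 164 CPM in the AS immunoprecipitates, had a ratio of -1.66 (SE 0.38, blocked edgeR adjusted p = 0.0149), and Sparc one of -1.37 (SE 0.32, blocked edgeR adjusted p = 0.0143). Thbs1 was thus higher, and Timp1 and Sparc lower, in the TIA1 fraction of both NT and AS cells. In neither NT nor AS did the blocked fit call members clearly more often than all genes. The change of binding with arsenite was tested itself, and 0 of the 36 members passed (0% of all 9477 genes, edgeR). DESeq2 called 0 members as well, and so did the blocked fit. Before adjustment 3 members had p under 0.05 without the block and 6 with it (Col1a1, Col1a2 and Col6a1 higher in AS, and Col5a1, Fn1 and Fbn1 lower). The fibroblast markers summed to 6599 to 7218 CPM in the inputs and 1904 to 2766 CPM in the immunoprecipitates, but their ratios were positive in 3 of the 6 tested in NT and in AS, with 1 called lower, S100a4. Their part in the ratios of the matrix genes was not tested.

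Of the 37 genes 32 had a pair of PASs within 10 kb of each other, called proximal (pPAS) and distal (dPAS). The choice of 3′ end could be measured in only part of them. The rarer end had, for example, 5 reads in Col4a2 and 6 in Hspg2 over all 3′READS libraries. The measure, the relative expression difference (RED), is the difference between groups in the log2 ratio of dPAS to pPAS reads. A gene entered the test when its pPAS and its dPAS each had over 5 reads in every library compared. The hexamer AATAAA or its variant ATTAAA was found in the 30 bases before the most used PAS of 32 of the 37 genes (86.49%), beside 76.79% of the 10801 genes with at least 100 reads at that PAS. AATAAA was in 78.38% and 61.69%, and on the opposite strand of the same windows in 2.703% and 4.139%. The ends of the 4 genes whose isoforms are described next are shown so that the signal before each end can be read. Each is the 30 bases that end at the PAS, read 5′ to 3′ on the gene's strand from mm9 (NCBIM37), with AATAAA or ATTAAA in capitals.
Timp2 pPAS, chr11:118164903-118164932, minus strand: aacagcatgAATAAAacatcaatcatccaa
Timp2 dPAS, chr11:118162375-118162404, minus strand: atggacAATAAAccatattatcaaagagaa
Thbs1 pPAS, chr2:117952339-117952368, plus strand: taaacttaaaactactgttgtgtctaaaaa
Thbs1 dPAS, chr2:117952838-117952867, plus strand: aacAATAAAtcatatggaagtttatattta
Col1a1 pPAS, chr11:94813182-94813211, plus strand: gAATAAATAAAtaactttttaaaaaaggaa
Col1a1 dPAS, chr11:94814322-94814351, plus strand: tgattgctggAATAAAgcatgtggaaatga
Col5a2 pPAS, chr1:45432650-45432679, minus strand: ttacaaaaagtaaactgatcaaaaAATAAA
Col5a2 dPAS, chr1:45431464-45431493, minus strand: tcgaATTAAAtgcatgcttctgtcatgtca

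Both ends of Timp2, a tissue inhibitor of metalloproteinases, had AATAAA, and they lay 2528 nt apart, the proximal one in the last exon and the distal one just past its annotated end. The Thbs1 ends lay 499 nt apart, and of these windows the distal one held AATAAA while the proximal one held neither hexamer. The stretch between the Thbs1 ends had 44.29% uridine and 14 matches to UUUUU, overlapping ones counted, a uridine share at percentile 99.0 of 7130 gene pairs. The Timp2 stretch had 28.05% and 2 such matches, beside a median of 30.45% for all pairs. The proximal end of Col1a1 had overlapping AATAAA hexamers and the distal end, 1140 nt on, had 1.

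In C2C12 total RNA, MT used the distal end more than MB in 3 of 18 members tested and less in 0, beside 11.5% and 4.79% of all 3072 genes. Thbs1 used its dPAS for 97.8% and 97.5% of pair reads in MB and for 99% and 99.1% in MT, a RED of 1.40 (SE 0.30, edgeR adjusted p = 0.000943). Timp2 used its dPAS for 76.9% and 81.3% in MB and 87.1% and 85.1% in MT, a RED of 0.71 (SE 0.18, edgeR adjusted p = 0.00412). For both genes the MT libraries lay above the MB libraries. The third gene, Col5a2, had a RED of 0.53 (SE 0.18, edgeR adjusted p = 0.0311). Timp2 was not called without MT library 2, nor was Col5a2 without MT library 2, MT library 3 or MB library 3. Over single omissions the number of members with the longer isoform higher was 1 to 4, with 1 left when MT library 2 was omitted, and 2 members had it lower without MB library 2.

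At RC4 in C2C12 cytoplasm 0 of 9 members tested shifted to the distal end and 1 to the proximal end, beside 0.128% and 9.63% of all 1558 genes. It was Thbs1, with 97.4% distal reads in NT at 4 h and 94.5% at RC4 in MB, and 97.8% and 92.7% in MT, a RED of -1.59 (SE 0.45, edgeR adjusted p = 0.0367). In MB these shares rest on few proximal reads, as Thbs1 had 271 reads in NT at 4 h and 163 at RC4. The call was lost without the NT library of 4 h of either state, and without the MT library of RC4, where the RED was -0.92. Timp2 did not pass there, at 0.13 (SE 0.34, edgeR adjusted p = 0.869), with 79% and 61.7% in the NT libraries of MB, 68.2% in AS and 67.9% at RC4. The 2 NT libraries of MB enclosed the AS and RC4 values.

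In NIH3T3 total RNA 0 of 12 members tested changed isoform after arsenite (0% of 1602 genes, edgeR), and 0 had p under 0.05 before adjustment. Timp2 used its dPAS for 72.9%, 54% and 64.3% of pair reads in NT and 68.1%, 54.6% and 58.5% in AS, overlapping ranges, with a RED of -0.22 (SE 0.59, edgeR adjusted p = 1). It stood at 52.7% at RC4, 46.7% at RC8, 60.7% at RC12 and 58.7% at RC24. In 4sU RNA it stood at 88.6% and 91.3% in NT, 85% in AS and 82.7% at RC4, and in Ft RNA at 85.6% and 87.2%, 85.8% and 66.7%. The RC4 library was the lowest of each fraction, without a test. Over all members with a measurable pair the RED of RC4 to NT at 4 h was negative in 19 of 21 in 4sU RNA, with a median of -0.77 beside -0.42 for all genes, and in 13 of 18 in Ft RNA, with a median of -0.71 beside -0.50. Some pairs lay only 29 to 72 nt apart, and their 4sU REDs were 1.10 (Nid1), 0.22 (Col5a1), -0.80 (Lamc1), -0.39 (Serpinh1) and -0.05 (Tnc). Some rarer ends were very rare, that of Bgn holding 0.14% of pair reads over all libraries.

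TIA1 immunoprecipitates held more of the long Timp2 isoform than inputs in every library, without passing the test across genes. The distal share was 74.6% and 80.3% in the NT inputs and 90.8% and 95.3% in the NT immunoprecipitates, a RED of 2.01 (SE 0.95, edgeR adjusted p = 0.419). In AS it was 73.9% and 77.1% and 98.7% and 87.3%, a RED of 2.75 (SE 1.01, edgeR adjusted p = 0.294). Inputs and immunoprecipitates did not overlap in either condition. Of 10 members tested 0 passed in NT or AS, beside 0.504% and 0% of all 1390 genes with the longer isoform higher and 0% with it lower (edgeR), with 0 members at p under 0.05 before adjustment in NT and 1 in AS. With the library number, shared by NT and AS lysates, as a block the count of members called was again 0.

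The isoforms of Col1a1 differed more between library numbers than between NT and AS. Its distal share in total RNA was 55.1% in NT and 58.6% in AS of number 1, 100.0% and 100.0% in number 2, and 87.3% and 87.6% in number 4. It was 65.6% at RC4 of number 4, when the Col1a1 level was at its lowest, and 99.6% and 99.6% in NT 4sU RNA.

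**Figure D5:**
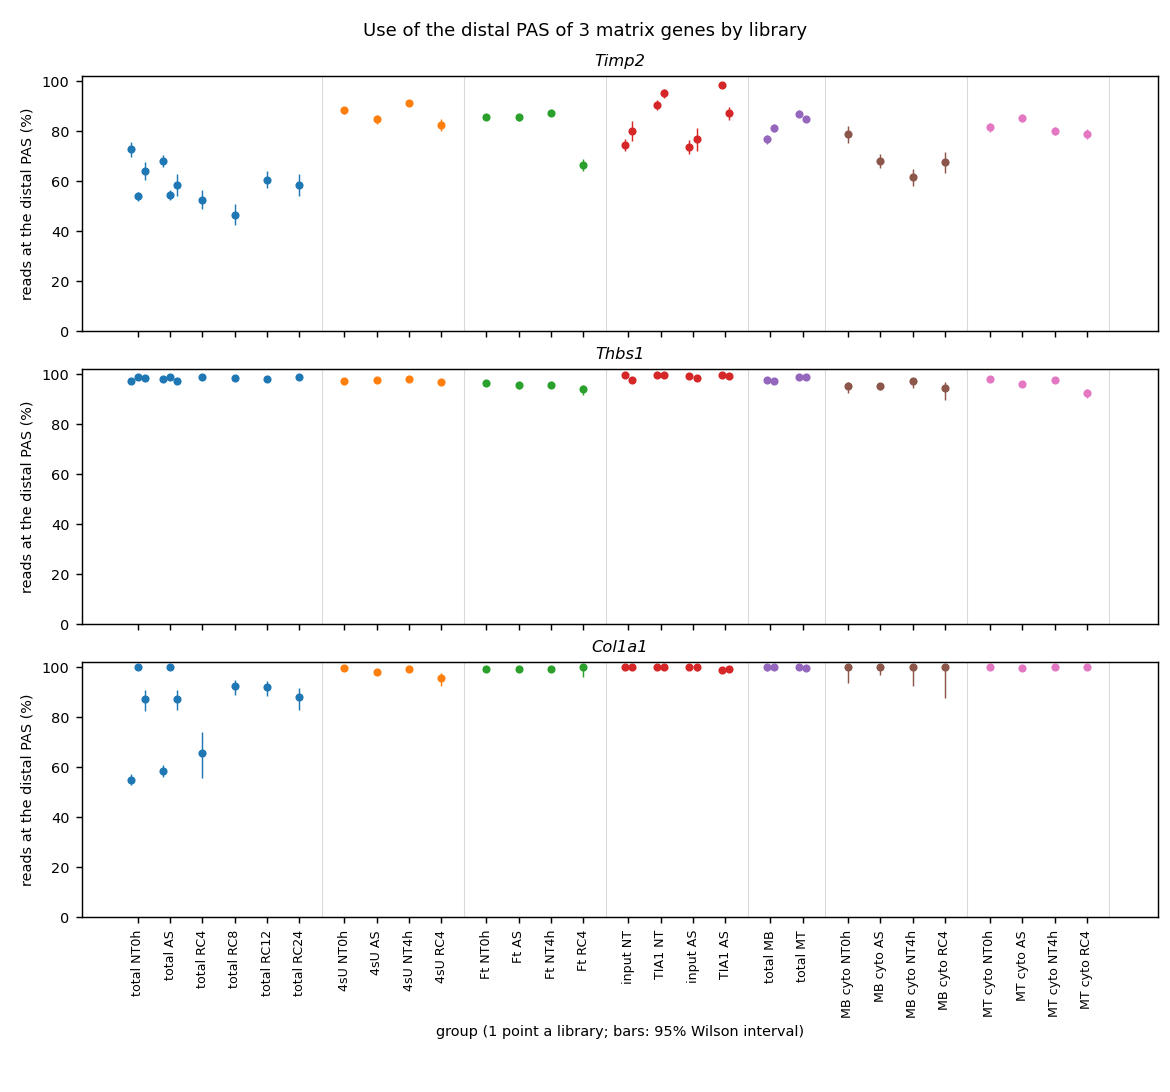
Share of pair reads at the distal PAS (y axis, percent) of Timp2, Thbs1 and Col1a1 in each 3′READS library (points, by group on the x axis), with 95% Wilson intervals that cover counting error only. Timp2 lies higher in the TIA1 immunoprecipitates than in their inputs, Thbs1 lies near the top in all groups, and Col1a1 in total RNA spreads from 55.1% to 100.0% by library number.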

How the data were processed

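Polyadenylation site (PAS) use was measured by 3′READS in 38 libraries, and coding-sequence reads by RNA-seq in 4. The authors deposited raw read counts per PAS cluster, made by trimming with Cutadapt, mapping to mm9 with Bowtie2 in local mode, keeping reads with nongenomic Ts and joining PASs within 24 nt, and raw RNA-seq counts per gene after mapping with STAR. PASs or genes with fewer than 5 reads are not listed. Because low sites are absent and counts are relative, a level is a share of a library.

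PAS counts were summed per gene, including 4 kb past the annotated end. Replicated groups were compared with edgeR 4.0.16 in R 4.3.3 (quasi-likelihood test, TMM scaling, filterByExpr, Benjamini-Hochberg adjusted p under 0.05, quoted as edgeR adjusted p). Counts at p under 0.05 before adjustment were made for the members only, so they have no share of all genes beside them. For isoforms the 2 most used PASs of a gene, at most 10 kb apart and each with over 5 reads, entered an isoform by group term. Comparisons with 1 treated library are log2 ratios of RPM plus 1, with a 2-fold limit and no test. A gene needed at least 50 reads in 1 or more of the libraries compared. Windows before PASs were read with pysam 0.24.0. Alternatives were DESeq2 1.42.0, other scaling, no low-count filter, annotated spans only, other read, fold and pseudocount limits, a replicate block and leaving out each library. The statistical scripts were tested on simulated counts.

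Groups came from the sample labels. The study's methods give 1 lysate for an immunoprecipitate and its input, and 1 culture for a 4sU library and its Ft library. Same-numbered NT and AS total RNA libraries deviated together (r = 0.851, 0.851 and 0.78 across 9002 genes), as did 4sU with Ft (0.155). Same-numbered libraries of the immunoprecipitation did so too (0.23 to 0.473), across NT and AS lysates. Within 1 lysate r was 0.309 in NT and 0.342 in AS. Library numbers, and the harvest for 4sU with Ft, were therefore used as blocks. Genes, groups of roles and lists of other genes were chosen with earlier results of these data known. Library values are given for at most 6 called genes per tested comparison, those with the largest change, for the largest consistent changes where no test was made, and for Timp2 isoforms. Col6a3, Nid1, Thbs1 in cytoplasm, Col1a1 in Ft and 4sU and the isoforms of Col1a1 and Col5a2 were added after their values were seen. Columns of samples outside the series numbered 0. 3′ end sequence is not reported for Lox.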

Additional observations from a re-analysis of the deposited data

Results flagged for a closer look

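For 6 of the 37 genes the RC4 values had opposite signs in the 2 cell lines: below 0 in all 4 NIH3T3 sets, by RPM and by size factors, and above 0 in both C2C12 states by CPM against NT at 4 h. Each value rests on 1 recovery library, the sets differ in line, fraction and preparation, and the difference was not tested. The rule was applied to the 37 genes only, so the share of all genes that would meet it is not known. Against NT at 0 h instead, the values were again above 0 in MT for all 6 genes (0.42 to 1.26), but in MB they were below 0 for 4 of them, so no gene kept its sign in MB under both controls and both scalings. In cytoplasm, Col1a2 had log2 ratios of 0.74 in MT and 0.77 in MB, and -1.90 to -0.81 in NIH3T3. Mmp2, the gelatinase, had 0.83 in MT and 0.78 in MB, and -1.37 to -0.64 in NIH3T3. By plain RPM the values of these 2 genes were also above 0 in both C2C12 states. In MB the untreated libraries themselves differed, with NT at 4 h against NT at 0 h at -1.21 for Col1a2 and -1.09 for Mmp2, and against NT at 0 h RC4 stood at -0.44 and -0.31.

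The other 4 genes were above 0 in MT under either scaling, but in MB only after TMM scaling. Col5a2 had 0.81 in MT and 0.27 in MB, with -0.06 in MB by RPM and -0.37 against NT at 0 h, and -1.03 to -0.51 in NIH3T3. Hspg2, the perlecan gene, had 0.50 in MT and 0.12 in MB, with -0.21 in MB by RPM and -0.18 against NT at 0 h, and -2.43 to -0.73 in NIH3T3. Fbn1 had 0.62 and 0.21, with -0.12 in MB by RPM, and -3.85 to -1.06 in NIH3T3. Loxl1 had 0.28 and 0.12, with -0.22 in MB by RPM, and -1.69 to -1.34 in NIH3T3. By size factors the highest NIH3T3 value was -0.15 for Col1a2, -0.24 for Col5a2, -0.48 for Hspg2, -0.81 for Fbn1, -0.85 for Loxl1 and -0.38 for Mmp2.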

How the results depend on the processing

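Of the single-gene values named in tests, 107 of those recomputed under another scaling, filter, tool or gene span kept direction and call and 2 lost the call. With 1 library left out, 128 kept both, 23 lost the call and 3 changed sign. The 3 were Timp2 REDs that had not passed. Over omissions the total RNA RED of AS to NT was -0.52 to 0.081 (-0.22 with all libraries), positive without NT library 1. That of the inputs was -0.41 to 0.065 (-0.17), positive without NT input 2. That of C2C12 cytoplasm at RC4 was -0.098 to 0.37 (0.13), negative without the MB library of NT at 4 h. Of the counts of members, 121 stayed within 1.5 times and 42 did not. The causes were not tested.

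For TIA1 against input in NT, 1 higher and 0 lower members became 3 higher with DESeq2, 4 and 1 with no filter on low counts, and 4 and 2 with the replicate block. In AS, 0 and 0 became 1 higher with DESeq2, 1 and 1 with no filter, and 3 and 2 with the block. In C2C12 cytoplasm AS, 0 higher members became 7 with DESeq2, 1 with no filter, and, in fits of 1 state added after seeing the data that combine its NT libraries, 1 in MB and 2 in MT. Those fits set 1 treated library, assumed to vary like the NT libraries, against 2, and no call of theirs is used above. At RC4 there, 4 higher became 7 with DESeq2 and 1 in MB alone, where 1 was also lower. The 1 member with the shorter isoform at RC4 became 0 with over 20 reads per isoform and 0 with the outermost PASs of at least 10% of reads.

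With a limit of 1.5-fold, RNA-seq gave 2 lower in AS and 5 higher at RC4. The time course then gave 2 higher and 10 lower at RC4, 1 and 13 at RC8, 1 and 9 at RC12 and 1 and 2 at RC24. 4sU AS gave 2 higher and 1 lower, Ft AS 1 lower, and Ft RC4 3 higher and 16 lower. With size factors, which for 4sU and Ft were added after seeing the data, RNA-seq gave 0 lower in AS and 6 higher and 4 lower at RC4, the time course 3 lower at RC4, 4sU AS 2 higher, and Ft RC4 4 higher and 4 lower. A pseudocount of 5 left 1 lower at RC12.

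Over omissions of 1 library, C2C12 total RNA gave 29 to 30 members higher and 3 to 5 lower in MT. C2C12 cytoplasm gave 29 to 31 higher and 0 to 1 lower in MT, and Ft against 4sU 21 to 23 higher and 1 lower. At RC4 the cytoplasm gave 0 to 3 higher and 0 to 1 lower, and TIA1 in NT 0 to 1 higher, the 0 without either NT input. The longer isoform was higher in MT in 1 to 4 members (1 without MT library 2) and lower in 0 to 2 (2 without MB library 2). The shorter isoform at RC4 was called in 0 to 1 members, the 0 without the MB or MT library of NT at 4 h or the MT library of RC4. In 4sU, AS gave 1 to 2 higher (2 without NT at 0 h) and 0 to 1 lower (1 without NT at 4 h), and RC4 5 to 6 higher and 13 lower. In Ft, RC4 gave 1 to 3 higher (3 without NT at 0 h) and 10 to 12 lower. Where an omission left 1 library in a group, it was assumed to vary like the others.

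In C2C12 total RNA the numbers of MB and MT libraries shared only a number (r = 0.0483), and with that number as a replicate block 30 members were higher and 4 lower, with 3 isoform calls. The block left the total RNA AS count of members at 0 and changed no call other than those given above for TIA1 and the 28 in Ft against 4sU. No paired analysis was possible because C2C12 cytoplasm, RNA-seq and the time course have 1 library per condition. Depth limits genes under 50 reads in a library and the rarer isoform of Thbs1, which held a few percent of pair reads.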
